A study of Mus musculus with 19 samples.

Results

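Ildr2 and Golm2 are 2 of the 55836 genes in a table of liver gene counts from 19 mice, and they were followed because both had stood out for higher counts after polyethylene on the fatty diet. They were found by symbol in the table, and both were among the 13597 genes that passed the filter on low counts. The mice were male wild-type C57BL/6, 8 weeks old at the start, and were kept for 8 weeks on a control diet (CD, 10 kcal% fat) or on a diet rich in fat, fructose and cholesterol that models metabolic dysfunction-associated steatohepatitis (MD, 40 kcal% fat). Each day they received by gavage either vehicle (Veh, water with Tween 20) or 2 mg of polyethylene particles (PE) in that vehicle. The libraries comprised CD + Veh (n = 4) and CD + PE, MD + Veh and MD + PE (n = 5 each), each from the liver of a different mouse. The groups carried no transgene or deletion, and mice of a group were housed together, so that the effects of a shared cage and of the treatment cannot be told apart. The libraries held 10398820 to 15456729 counts, with medians on CD of 15089731.5 (vehicle) and 10837229 (PE) and on MD of 14790140 (vehicle) and 11615001 (PE). The order of the library numbers followed the gavage, 39 to 47 for vehicle and 48 to 57 for PE, and their order and the gavage likewise cannot be told apart.

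Ildr2 encodes a membrane protein of the angulin family, whose other members are Lsr and Ildr1. Angulins mark the corners where 3 epithelial cells meet and recruit tricellulin (Marveld2) to the tight junction there. ILDR2 also sits in the endoplasmic reticulum, has been linked in mouse liver to lipid handling, and has a B7-like domain that can restrain T cells. Golm2, long called Casc4, encodes a single-pass protein of the Golgi membrane and is the closest relative of Golm1, the gene of the Golgi protein GP73, which is measured in serum as a marker of liver disease.

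On the mouse genome build GRCm39, Ildr2 lies on the plus strand of chromosome 1 from 166081665 to 166146159. Its canonical transcript has 9 exons and a length of 10004 bases. Golm2 lies on the plus strand of chromosome 2 from 121697427 to 121766701, also with 9 exons in its canonical transcript, which is 4069 bases long. The 250 bases before the canonical start site of each gene are shown because both genes were higher in MD + PE, and they let the letters of both promoters be set side by side. The sequences come from the GRCm39 genome, plus strand, with matches on either strand to 4 motifs in capitals, namely CACGTG (the E-box), AGGTCA (the half-site of many nuclear receptors), CCAAT and GGGCGG (the GC box).
Ildr2, chr1:166081415-166081664: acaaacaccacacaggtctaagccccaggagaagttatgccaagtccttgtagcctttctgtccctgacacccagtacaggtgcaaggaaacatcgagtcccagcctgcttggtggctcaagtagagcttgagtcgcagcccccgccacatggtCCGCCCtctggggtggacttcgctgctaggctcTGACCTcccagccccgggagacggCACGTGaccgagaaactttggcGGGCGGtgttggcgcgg
Golm2, chr2:121697179-121697428: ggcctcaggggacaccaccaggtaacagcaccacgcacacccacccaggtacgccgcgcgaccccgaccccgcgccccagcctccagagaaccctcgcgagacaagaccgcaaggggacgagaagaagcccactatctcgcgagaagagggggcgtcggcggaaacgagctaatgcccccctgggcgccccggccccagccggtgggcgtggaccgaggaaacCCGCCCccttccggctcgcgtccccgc
The Ildr2 window held 1 CACGTG, first base 39 bases before the start, and 1 AGGTCA on the opposite strand at 63. It also held 2 GGGCGG, at 96 on the opposite strand and at 17. The Golm2 window held 1 GGGCGG, at 27, on the opposite strand. Of 21770 promoters of the same length, 6.26% held CACGTG, 13.1% AGGTCA, 36.5% CCAAT and 36.3% GGGCGG. The GC box was the only one of these motifs in both windows, and no motif overlapped another. The GC content was 60.8% in the Ildr2 window and 71.6% in the Golm2 window.

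Ildr2 was at a similar level in the 3 other groups and higher in MD + PE. Values are CPM, read counts scaled to library size with TMM factors, and at these depths Ildr2 rested on 165 to 783 counts per library. In CD + Veh it was at 19.5, 23.9, 19.9 and 25.2 CPM, a mean of 22.1 ± 2.83 (SD, n = 4). In CD + PE it was at 20.8, 17.7, 27.8, 16.6 and 28 CPM, a mean of 22.2 ± 5.44 (SD, n = 5). The range of CD + Veh lay inside that of CD + PE, which was wider on both sides. In MD + Veh it was at 25.4, 33.0, 28.6, 28.7 and 14.1 CPM, a mean of 26 ± 7.18 (SD, n = 5), and the lowest of all 19 libraries was MD + Veh 5. In MD + PE it was at 40, 53.6, 39.1, 53.8 and 58.9 CPM, a mean of 49.1 ± 8.95 (SD, n = 5). All 5 MD + PE libraries stood above each of the other 14, the highest of which was MD + Veh 2.

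Golm2 was scarcer, and its group means increased from CD + Veh through CD + PE and MD + Veh to MD + PE. It rested on 45 to 215 counts per library, so that counting error alone was 14.9% at the lowest count, against 7.78% for Ildr2. In CD + Veh it was at 3.67, 4.08, 3.49 and 4.38 CPM, a mean of 3.90 ± 0.402 (SD, n = 4). In CD + PE it was at 3.74, 4.47, 5.56, 5.72 and 6.22 CPM, a mean of 5.14 ± 1.01 (SD, n = 5). Of these libraries 4 lay above every CD + Veh library, and CD + PE 1 lay within the CD + Veh range. In MD + Veh it was at 4.82, 5.82, 5.52, 5.19 and 5.41 CPM, a mean of 5.35 ± 0.377 (SD, n = 5), the tightest group. In MD + PE it was at 5.93, 18.1, 10.1, 8.10 and 10.1 CPM, a mean of 10.5 ± 4.60 (SD, n = 5). MD + PE did not overlap MD + Veh, but MD + PE 1 lay just above MD + Veh 2 and below CD + PE 5.

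**Figure D1:**
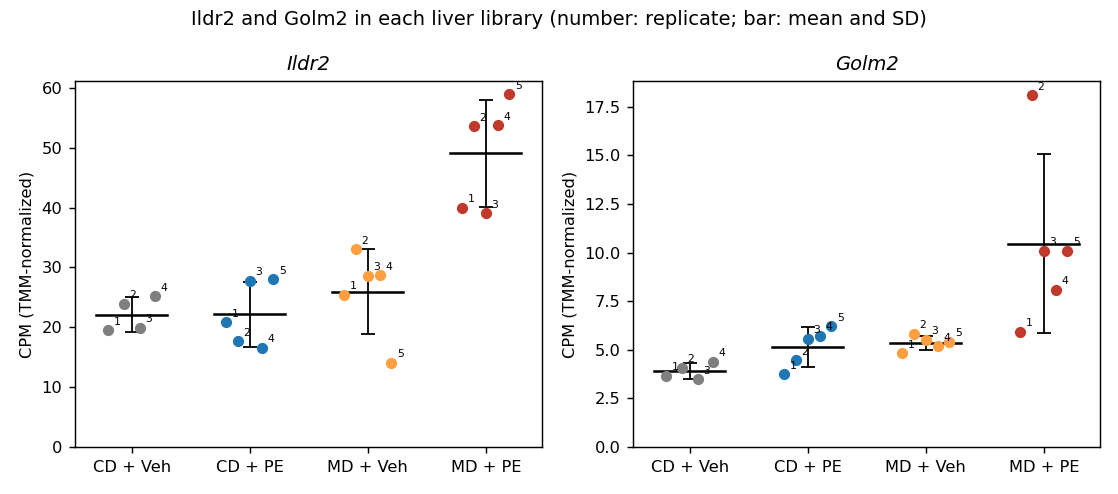
CPM of Ildr2 (left) and Golm2 (right) in each of 19 liver libraries by group; points are libraries with their replicate number, and bars give the mean and SD. Ildr2 lies between 39.1 and 58.9 CPM in MD + PE and at or below 33.0 elsewhere, while Golm2 in MD + PE runs from 5.93 to 18.1 CPM.

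Per kilobase of transcript, Ildr2 was the more abundant of the pair in every group by mean level. Ildr2 was at 2.21 ± 0.282 CPM per kilobase in CD + Veh and 4.90 ± 0.895 in MD + PE, and Golm2 at 0.960 ± 0.0987 and 2.57 ± 1.13 (SD, n = 4 and 5). Lsr, the angulin that hepatocytes are known for, was at 92.0 ± 5.43 CPM per kilobase in CD + Veh and 41.9 ± 6.99 in MD + PE (SD, n = 4 and 5).

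Because both genes were singled out for the difference between MD + PE and MD + Veh, that difference is given as a description. The ratio of mean CPM was 1.89 for Ildr2 and 1.95 for Golm2. In an edgeR fit of all 19 libraries the log2 fold change was 0.92 (SE 0.192) for Ildr2 and 0.96 (SE 0.216) for Golm2, and a choice made on this difference tends to favour large values. Of all genes tested, 147 (1.08%) were called in this comparison, 20 of them higher (0.147%) and 127 lower (0.934%) (adjusted p under 0.05, log2 change of 0.38 or more in either direction). In 1.08% of genes tested, every MD + PE library was higher than every MD + Veh library. Only 12 genes (0.0883%) had all 5 MD + PE libraries above the 14 others, and Ildr2 was among them and Golm2 was not.

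Ordered by log2 fold change, 15 of the genes called higher had a mean of at least 5 CPM in MD + PE and no overlap with MD + Veh. Golm2 and Ildr2 took places 2 and 3 in that order. Both had been chosen on the rise from MD + Veh to MD + PE, so that a high place follows from the choice. Without MD + PE 2 the log2 fold change of Golm2 was 0.67. Ctse, the protease cathepsin E, came first with a log2 fold change of 5.02 (SE 1.22), but 1 library, MD + PE 2, was at 49.3 CPM and the median of the group was 1.44. After Ildr2 came Gcnt4, an enzyme that branches O-linked sugars in the Golgi, at 0.88 (SE 0.176), AI463229 at 0.80 (SE 0.150) and Gm15638 at 0.67 (SE 0.159). Gcnt4 was at 8.07 ± 0.763 CPM in CD + Veh, 3.66 ± 0.830 in MD + Veh and 6.73 ± 1.1 in MD + PE (SD, n = 4, 5 and 5), so that its MD + PE level was below that of CD + Veh, whereas Ildr2 and Golm2 were highest in MD + PE.

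PE against vehicle on CD compares no MD library, although all groups share the estimate of the spread, and it was tested for both genes. Earlier results of the CD libraries were also known when the genes were chosen, so the test is not fully independent of that choice. Neither passed. In this comparison 397 genes (2.92%) were called, 166 higher (1.22%) and 231 lower (1.70%). The log2 fold change of Ildr2 was 0.0029 (SE 0.207, adjusted p = 0.997 by edgeR's quasi-likelihood test), with a 95% interval of -0.43 to 0.44, and it was 0.44 (SE 0.334, adjusted p = 0.646, edgeR) with the division of the library numbers (between 45 and 46) as a covariate. That of Golm2 was 0.39 (SE 0.239, adjusted p = 0.425 by the same test), with an interval of -0.11 to 0.89. The intervals leave room for a change of either sign for Ildr2 and, for Golm2, for a rise almost as large as on MD.

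The remaining comparisons share the MD libraries on which the genes were chosen and are given without a test. MD + Veh against CD + Veh gave a log2 fold change of 0.23 (SE 0.205) for Ildr2 and 0.45 (SE 0.236) for Golm2. That of Ildr2 was 0.40 without MD + Veh 5 and 0.13 without MD + Veh 2. MD + PE against CD + PE gave 1.15 (SE 0.195) for Ildr2 and 1.02 (SE 0.219) for Golm2. The difference between the PE effects on the 2 diets was 0.91 (SE 0.281) for Ildr2 and 0.57 (SE 0.321) for Golm2. That of Golm2 was 0.28 without MD + PE 2. Across all genes, 1 (0.00735%) was called for the difference between diets.

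**Figure D2:**
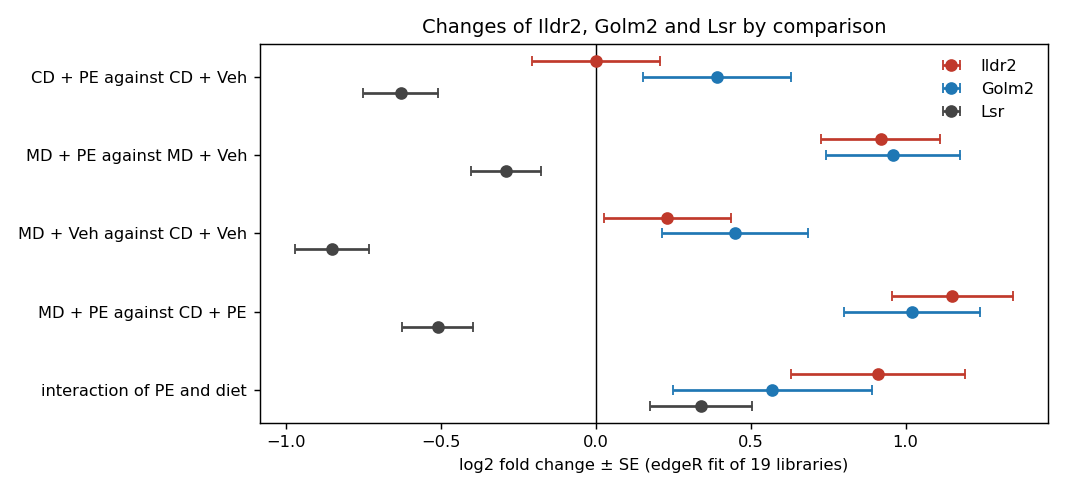
Log2 fold changes with their SE (horizontal bars) of Ildr2, Golm2 and Lsr in each comparison, from the edgeR fit of 19 libraries. Ildr2 and Golm2 lie between 0.92 and 1.15 in both comparisons of MD + PE, while Lsr lies below 0 in every comparison between groups.

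Ildr2 and Golm2 were compared with each other within groups, so that group means could not enter. After subtracting group means from log2 CPM, Pearson's r was 0.306 (permutation p = 0.170) and Spearman's rho 0.386 (permutation p = 0.136, both two-sided, n = 19 libraries). Without MD + Veh 5 and CD + PE 4, the libraries farthest from the median of Ildr2, r was 0.557 (permutation p = 0.0672) and rho 0.608 (permutation p = 0.0435, n = 17). Without CD + PE 4 alone, r was 0.375 (permutation p = 0.0868) and rho 0.538 (permutation p = 0.0413, n = 18), so that rho passed or missed the threshold with that library. Pearson's r did not pass in any of these. No other relation was tested in this way. MD + PE 5 led for Ildr2 and MD + PE 2 for Golm2.

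The relatives of both genes gave other patterns. Lsr, the lipolysis-stimulated lipoprotein receptor, was lower wherever it passed the test. On CD it was at 240, 216, 247 and 242 CPM with vehicle and at 140, 169, 137, 161 and 158 with PE. On MD it was at 138, 130, 119, 105 and 163 CPM with vehicle and at 121, 89.9, 103, 131 and 92.8 with PE. Every CD + Veh library stood above all 15 others, and the share of all genes with this order is not given here. On CD, PE changed it by -0.63 on the log2 scale (SE 0.120, adjusted p = 0.00649 by edgeR), from 236 ± 13.9 to 153 ± 13.9 CPM (SD, n = 4 and 5). With the division of the library numbers as a covariate the value was -0.68 and the adjusted p 0.162. On MD, PE gave -0.29 (SE 0.114, adjusted p = 0.22), which did not pass. The diet alone, MD + Veh against CD + Veh, gave -0.85 on the log2 scale (SE 0.119, adjusted p = 0.000103), and MD + PE against CD + PE gave -0.51 (SE 0.114, adjusted p = 0.00985), all by edgeR. Ildr1 had 0 to 12 counts per library and was not tested.

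Golm1 was low in all libraries but MD + PE 2. On CD it was at 1.99, 3.44, 3.02 and 1.75 CPM with vehicle and at 1.83, 2.63, 1.24, 2.11 and 1.58 with PE. On MD it was at 2.03, 3.59, 2.66, 2.55 and 2.16 CPM with vehicle and at 2.44, 47.5, 2.78, 2.54 and 2.42 with PE. PE on MD gave 2.14 on the log2 scale (SE 0.705, adjusted p = 0.133 by edgeR) and was -0.032 without MD + PE 2. MD + PE against CD + PE passed, at 2.61 (SE 0.741, adjusted p = 0.0381), and was 0.44 (adjusted p = 0.366, edgeR) without that library and 1.73 (adjusted p = 0.0933) with the replicate number as a block. This call was kept in 6 of 10 alternative analyses, with adjusted p up to 0.142, and in 14 of 19 that left out a library, by edgeR. Golm1 in the other MD + PE libraries was at 2.55 ± 0.165 CPM (SD, n = 4), against 2.60 ± 0.614 in MD + Veh (SD, n = 5).

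**Figure D3:**
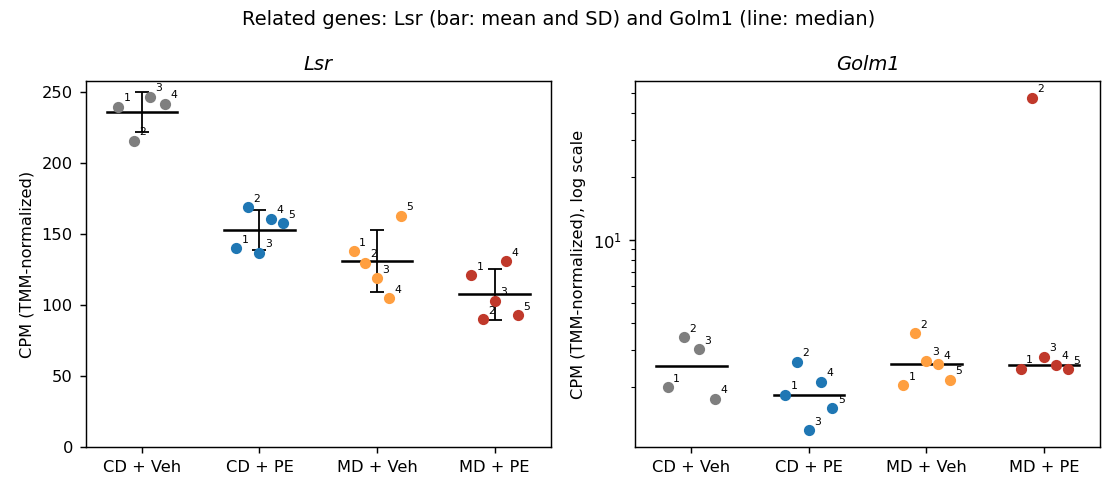
CPM of Lsr (left, linear axis, bars give mean and SD) and Golm1 (right, log axis, lines give the median) in 19 liver libraries, numbered by replicate. Lsr is at 216 to 247 CPM in CD + Veh and at or below 169 elsewhere, and Golm1 is at 47.5 CPM in MD + PE 2 and at or below 3.59 in the other 18 libraries.

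MD + PE 2 also stood apart in markers of epithelia other than hepatocytes. Of 8 bile duct markers, Krt19 was at 58.7 CPM there and at most 8.17 in any other library, Epcam at 29.2 against 3.50, Krt7 at 13.1 against 2.15, Cldn7 at 7.92 against 1.5 and Cftr at 33.8 against 1.13. Spp1, the most abundant of the list, was at 26.1 and within the range of the others, and Sox9 was at 14.2 against 14. Of 8 intestinal markers, Vil1 was at 22.7 against at most 0.645, Muc2 at 16.5 against 1.22, Cdh17 at 10 against 0.522 and Cdx2 at 2.02 against 0, while Fabp2, the most abundant, was at 118 against 121. These genes were picked with their values in view. The summed level of the bile duct list was 183 CPM in MD + PE 2, 36.7, 50.1, 108 and 43.9 in MD + PE 1, 3, 4 and 5, and 34.6 to 56.7 in the 3 other groups. The sum of the intestinal list was 227 CPM in MD + PE 2, 114 to 130 in the other MD + PE libraries, 117 to 132 in MD + Veh and 52.8 to 102 in the CD groups.

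These markers moved with the highest Golm2 value, and their part in it was not tested. Without MD + PE 2, Golm2 in MD + PE was at 8.54 ± 1.97 CPM (SD, n = 4) and 1.60 times MD + Veh, where it had been 1.95 times with it. The fitted log2 fold change was then 0.67. Ildr2 without that library was at 47.9 ± 9.92 CPM (SD, n = 4) and 1.85 times MD + Veh. Its highest library, MD + PE 5, had a bile duct sum of 43.9 CPM, inside the range of the 3 other groups. MD + PE 4 and MD + PE 2 came next for Ildr2, above MD + PE 1 and 3. The sum of MD + PE 4 was mostly Spp1, at 85.3 CPM, and Krt19 and Cftr were at 1.37 and 0.893 there. Without Spp1 the sum was 22.7 CPM in MD + PE 4 and 157 in MD + PE 2, against 8.83 to 19.6 in the 3 other groups. The part of these markers in Ildr2 was not tested either.

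**Figure D4:**
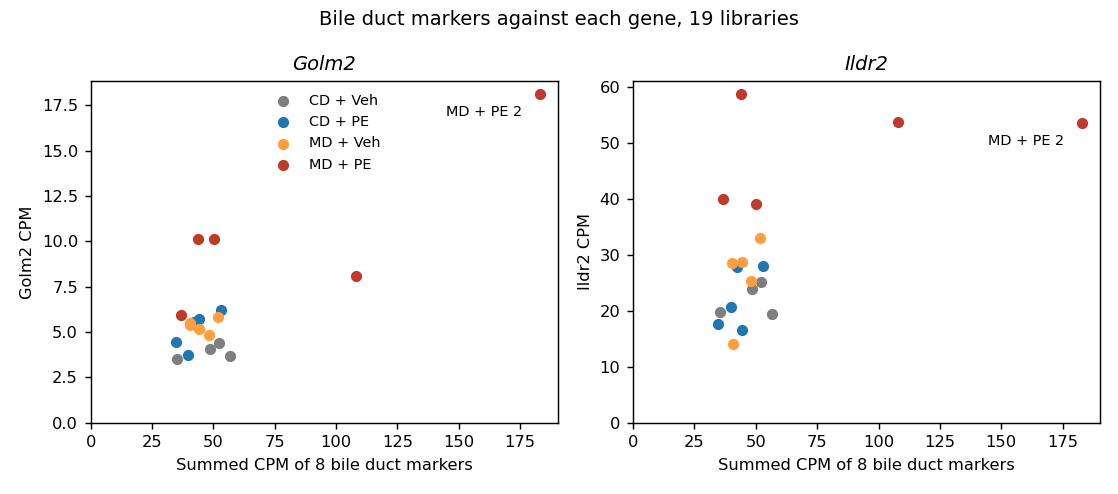
CPM of Golm2 (left) and Ildr2 (right) against the summed CPM of 8 bile duct markers, each point a library coloured by group. MD + PE 2 lies at 183 CPM of markers and holds the highest Golm2 value, 18.1 CPM, while the highest Ildr2 value, 58.9 CPM, lies at 43.9 CPM of markers.

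The liver label was checked on hepatocyte markers, led by Alb, and the sum over 5 genes lay between 42500 and 85200 CPM in all libraries. That sum was lower on MD, with medians of 55600 in MD + Veh and 47900 in MD + PE against 71850 in CD + Veh and 72000 in CD + PE. In bulk liver, fewer cells of a type and less RNA per cell cannot be told apart. Skeletal muscle genes, led by Acta1, summed to 3080, 194, 139, 16.5 and 2.63 CPM in MD + Veh 1 to 5 and to at most 2.76 in MD + PE, and 4 of 8 (Atp2a1, Mb, Myh4 and Tnnt3) were called lower in MD + PE against MD + Veh. Ildr2 was at 25.4 CPM in MD + Veh 1, where the muscle sum was highest, and at 14.1 in MD + Veh 5, where it was lowest. In MD + PE against MD + Veh, none of the genes tested of 8 further lists (hepatocyte, bile duct, Kupffer cell, T cell, stellate cell, endothelial cell, neural and intestinal epithelium) was called by edgeR, beside 1.08% of all genes. In that order 2 of 5, 4 of 6, 0 of 8, 0 of 5, 1 of 8, 2 of 8, 1 of 5 and 1 of 2 genes tested were at an unadjusted p below 0.05, beside 15.7% of all genes, so that the bile duct list, with MD + PE 2 included, had the highest share of these 8. The lists lead with Alb, Spp1, Cd5l, Cd4, Dcn, Fcgr2b, Syt1 and Fabp2. Among the CD + PE libraries the muscle sum was 422 CPM in CD + PE 1 and 1.48 to 8.6 in the others, and the Kupffer cell sum was 717 CPM in CD + PE 2 and 83.7 to 127 in the others. The log2 fold changes for PE on CD were 0.038 for Ildr2 and 0.50 for Golm2 without CD + PE 1, and 0.074 and 0.44 without CD + PE 2, and none of these passed.

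The library numbers divide between 45 and 46, where the pseudogenes Rps6-ps4, Rps12-ps3 and Rpl10a-ps1 fall from a summed level of 128 to 197 CPM to at most 11.8. The division lies inside MD + Veh, whose replicates 4 and 5 are on the side of all PE libraries. Within MD + Veh, Ildr2 averaged 29.0 CPM before it and 21.4 after it, and Golm2 5.39 and 5.30. For Ildr2 the libraries after it were MD + Veh 4 at 28.7 CPM and MD + Veh 5 at 14.1, so that the lower mean rests on MD + Veh 5. On the side of the PE libraries, the ratio of MD + PE to MD + Veh was 2.29 for Ildr2 and 1.97 for Golm2. With the division as a covariate the log2 fold change of Ildr2 was 1.20. Only MD + Veh has libraries on both sides, so the covariate is estimated from that group alone. A score of the circadian clock (Bmal1 arm minus Dbp arm) had medians of -3.26 and -1.91 in CD + Veh and CD + PE, and of -0.52 and -0.75 in MD + Veh and MD + PE, closer together between the MD groups than between the CD groups. On CD 2 of 4 genes of the Bmal1 arm (Bmal1 and Clock) and 0 of 8 of the Dbp arm were called for PE by edgeR, with 4 and 4 at an unadjusted p below 0.05, beside 2.92% and 17.5% of all genes. On MD 0 of the 12 were called and 0 had an unadjusted p below 0.05, beside 1.08% and 15.7% of all genes.

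None of the nearest tested genes on either side was called for PE on MD. The nearest tested genes beside Ildr2 are Pou2f1 and Tada1, with log2 fold changes of 0.11 (SE 0.140) and -0.085 (SE 0.108) for PE on MD. Those beside Golm2 are Wdr76, at 0.30 (SE 0.292), and Ctdspl2, at 0.32 (SE 0.150). Inside Ildr2 lies the antisense gene 5330438I03Rik, with at most 4 counts in a library. Golm2 overlaps Gm14019 and Gm56104, each at 0 counts in every library, which allows up to 3 counts, and Gm74996, not analysed here.

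The other genes of 7 lists chosen by role (angulins, cell junctions, B7-type ligands, GOLM proteins, Golgi structure, Golgi glycosylation and cargo, and endoplasmic reticulum stress) were called for PE at shares near those of all genes, 2 of 138 (1.45%) on CD against 2.92% and 0 of 138 on MD against 1.08%. Of 31 tested genes of cell junctions, 1 was called higher by PE on CD, Cldn1, the main sealing claudin of many epithelia, at 0.56 (SE 0.153, adjusted p = 0.0467 by edgeR). It passed in 6 of 11 alternative analyses and in 7 of 19 that left out a library, and with the clock score as a covariate it was 0.25 (adjusted p = 0.454, edgeR). On MD the edgeR test called none of the 31, with 4 at an unadjusted p below 0.05. Their median log2 fold change was 0.040 on CD and 0.0031 on MD, beside 0.0064 and -0.012 over all genes tested. Marveld2, the partner of the angulins, was at 9.46 CPM with vehicle and 8.0 with PE on CD, and at 5.10 and 5.35 on MD. It did not pass for PE on CD (-0.24, adjusted p = 0.516) or on MD (0.070, adjusted p = 0.896 by edgeR) and was called lower on MD in both gavage groups. Ocln gave 0.12 and 0.25 on the log2 scale for PE on CD and MD, and Tjp1 -0.041 and 0.11, none of which passed.

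The list of B7-type ligands, which signal to T cells, also holds Btla and Tnfrsf14, which are not such ligands. Of its 9 tested genes, none was called by edgeR for PE on either diet. At an unadjusted p below 0.05 were 1 on CD and 0 on MD. The median log2 fold change of the 9 genes was 0.053 on CD and -0.15 on MD. Cd274, the gene of PD-L1, was on CD at 2.53 ± 0.242 CPM with vehicle and 4.74 ± 5.55 with PE (SD, n = 4 and 5). On MD it was at 4.31 ± 1.79 and 3.06 ± 0.981 CPM (SD, n = 5 each). Its log2 fold changes for PE were 0.91 (SE 0.517) on CD and -0.50 (SE 0.479) on MD, and its SD in CD + PE exceeded the mean.

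Of 39 tested genes of Golgi structure, none was called for PE on either diet, with 6 on CD and 4 on MD at an unadjusted p below 0.05. Golgb1 and Golim4, a large tether and a cycling protein of the Golgi, gave 0.019 (SE 0.0820) and 0.12 (SE 0.0717) on MD. Golga2, the matrix protein GM130, gave -0.35 (SE 0.0916, adjusted p = 0.0395 by edgeR) on CD, which missed the minimum fold change. So did 3 others of this list on CD that passed the adjusted p, Golga7 at 0.25, Stx16 at 0.34 and Arf1 at -0.23, named after their values were seen. Of 33 tested genes of Golgi glycosylation and cargo none was called for PE by edgeR, with 4 on CD and 5 on MD at an unadjusted p below 0.05. The 24 genes of endoplasmic reticulum stress gave no call for PE either, with 3 and 6 at an unadjusted p below 0.05, and all 6 on MD were higher. The median of this list was 0.20 on MD, against -0.012 over all genes, and Hspa5, its chaperone BiP, gave 0.14 (SE 0.214). Over the 7 lists together, without Ildr2 and Golm2, 0 of 138 genes were called for PE on MD by edgeR and 0 of the 132 to which DESeq2 gave an adjusted p, Golm1 not among them. An unadjusted p below 0.05 was reached by 21 of them (15.2%), beside 15.7% of all genes tested. On CD 2 of 138 were called by edgeR and 3 of 125 by DESeq2, and 21 (15.2%) reached an unadjusted p below 0.05, beside 17.5% of all genes.

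In the diet comparisons the shares called were again near those of all genes. In MD + Veh against CD + Veh, where 10.4% of all genes were called (4.74% higher, 5.63% lower), 15 of the 138 (10.9%) were called. They were Lsr, 7 junction genes (Tjp3, Cldn1 and Amotl2 higher; Cdh1, Cldn14, Marveld2 and F11r lower), Igsf11 higher and Cd276 lower among B7-type ligands, Pcsk6 higher and Mgat4b, St6gal1 and St3gal4 lower among Golgi enzymes, and Atf4 lower. In MD + PE against CD + PE, where 4.61% of genes were called (1.69% higher, 2.92% lower), 6 (4.35%) were called, Golm1, Pcsk6 and Dnajc3 higher and Lsr, Cldn14 and Marveld2 lower. An unadjusted p below 0.05 was reached by 39 of the 138 in each (28.3%), beside 28.6% of all genes for MD + Veh against CD + Veh and 21.7% for MD + PE against CD + PE, where 28 of the 39 were higher and 11 lower.

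The genes most like Ildr2 and Golm2 were ranked by Pearson's r of log2 CPM among 13596 others. These values are a description, since libraries of a group share diet, gavage and depth. Over 19 libraries Ildr2 was most like Plin4, a coat protein of lipid droplets (r = 0.838), then the sorting nexin Snx13 (0.830), the peptidase Mme (0.817), Enc1 (0.816) and Zfp449 (0.806). Golm2 ranked 14th (0.766). After subtracting group means the closest were Lamb3, a laminin chain (0.896), Plin4 again (0.872) and the ubiquitin ligase Mib2 (0.846), and Golm2 ranked 2147th.

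Mean Plin4 was 5.72 ± 1.61 CPM in CD + Veh (SD, n = 4) and 11.8 ± 4.73 in CD + PE (SD, n = 5). On MD it was 32.0 ± 13.0 CPM with vehicle and 63.5 ± 15.3 with PE (SD, n = 5 each). Within MD + PE it was at 41.3, 69.1, 54.9, 78.3 and 74.1 CPM, and the 3 highest libraries were also the 3 highest for Ildr2. In MD + Veh it was at 47.5, 39.6, 30.8, 29.1 and 12.8 CPM, and the lowest was again MD + Veh 5. The levels also differed, since every MD + Veh library was above every CD + Veh library for Plin4 (as for 7.37% of genes) and not for Ildr2. For PE on CD the log2 fold change of Plin4 was 1.04 (SE 0.349, adjusted p = 0.105 by edgeR, not called), beside 0.0029 for Ildr2. Within groups r was 0.872 and rho 0.800, and without MD + Veh 5 and CD + PE 4 they were 0.802 and 0.657 (n = 17). Without MD + PE 2, Mme came first over 18 libraries, at 0.83, and Plin4 next, at 0.82, and within groups Lamb3 came first, at 0.945, and Plin4 next, at 0.872.

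**Figure D5:**
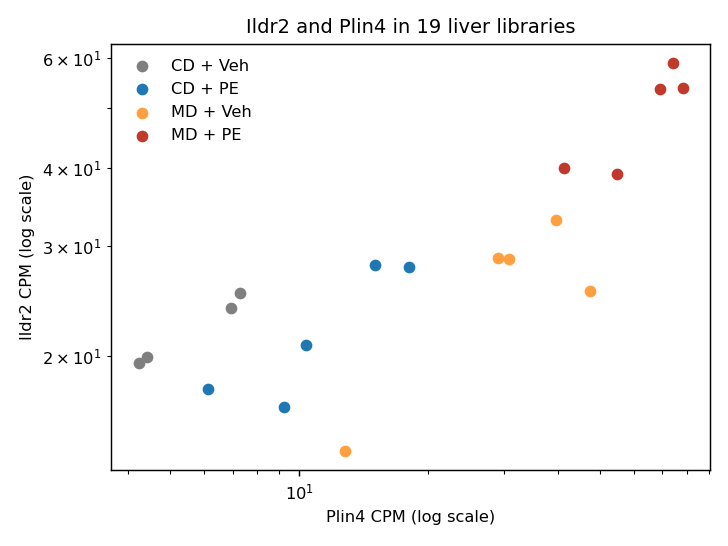
Ildr2 CPM against Plin4 CPM in 19 liver libraries, both on log axes, coloured by group. The MD + PE libraries lie at 41.3 to 78.3 CPM of Plin4 and 39.1 to 58.9 CPM of Ildr2, and MD + Veh 5 is low in both.

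Golm2 was most like Ctse (0.856), the glutathione transferase Gsto1 (0.816), Acadm, an enzyme of fatty acid oxidation (0.800), Itfg1 (0.795) and Efcab14 (0.787), and Ildr2 ranked 14th. After subtracting group means the closest were Car2, a carbonic anhydrase (0.827), Ehf, a transcription factor of epithelia (0.825), and Lgals4, a galectin of the gut (0.810). All 3 were highest in MD + PE 2, where Car2 was at 48.3, Ehf at 29.5 and Lgals4 at 52.2 CPM. Without MD + PE 2, these within-group values fell to 0.570, 0.550 and 0.616 and Ctse over 18 libraries to 0.71. Acadm then led over 18 libraries at 0.891, followed by Ap1ar (0.868), Nlrp12 (0.866), Rock2 (0.862) and Acer2 (0.860).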

How the data were processed

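The data are bulk RNA-seq libraries from the livers of 19 mice. The authors trimmed reads with fastp 0.23.4, estimated transcript abundance with Salmon 1.10.3 (selective alignment, sequence bias correction) on GENCODE transcripts (GRCm39) and used tximport to obtain gene values. Deposited are the authors' estimated counts as whole numbers for 55836 genes, without normalization or filter, and each library has its own column. Groups were taken from the sample titles and treatment labels. DESeq2 was also named in the submitters' processing notes. The labels describe 4 randomly selected livers, whereas 5 samples are labelled in 3 of the groups. Nothing beyond 1 library per mouse sets replicates apart, and intervals cover the spread between libraries.

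The fit was made with edgeR 4.0.16 under R 4.3.3 (TMM, filterByExpr, 1 coefficient per group, quasi-likelihood F test over all 19 libraries), with Benjamini-Hochberg adjustment over 13597 genes. A gene was called where its adjusted p was under 0.05 and its log2 fold change 0.38 or more in size. SE is the log2 fold change divided by the square root of F. DESeq2 1.42.0 was an alternative. Correlations used log2 CPM with a prior count of 2 and 100000 permutations within groups. Positions, transcripts and overlaps come from GENCODE vM39, which names 54658 of the genes listed. The analysis was tested on simulated data.

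Ildr2, Golm2 and the gene lists were chosen with earlier results of these data known. Genes named are Ildr2 and Golm2, their relatives, list members called for PE or fixed by role, neighbours in the order of rises and on the chromosome, the genes most like each, and the leading genes of marker lists. List members called in the diet comparisons, marker genes in MD + PE 2, and the likeness without MD + PE 2 were chosen after their values were seen. Over 36 pairs of libraries within groups at most 1.85% of genes were identical, and no copy was found. Alternatives were RLE normalization, DESeq2, no or a stricter filter (10 or more counts throughout a group, mean 1 CPM), robust dispersion, calls without a minimum fold change, fits of only the groups compared, replicate number as a block, the division of library numbers or the clock score as a covariate, thinning to 10398820 counts, a GC and length offset, and each library left out in turn. One marker gene is not reported here.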

Additional observations from a re-analysis of the deposited data

Results flagged for a closer look

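Golm1 in MD + PE was marked by 1 library far from the rest. MD + PE 2 was at 47.5 CPM, and its gap to the nearest library was 0.992 of the range of the 5 MD + PE values, above the critical limit for 5 samples. The same library held the highest Golm2 value. Ildr2, Golm2, Lsr, Golm1 and Cldn1, each taken by group, gave 20 groups for this check, in which chance marks about 1 in 20.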

How the results depend on the processing

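The log2 fold changes of Ildr2 and Golm2 for PE on MD kept their direction in all 11 alternative analyses and with each library left out. Both genes were chosen on this difference, and their MD + PE libraries did not overlap MD + Veh. Leaving out a library could therefore hardly turn the sign, and the kept direction is no test. Ildr2 ranged from 0.91 to 1.20 over the alternatives and from 0.76 (without MD + Veh 5) to 1.02 with a library left out, and Golm2 from 0.88 to 0.98 and from 0.67 (without MD + PE 2) to 1.11. On CD neither passed in any alternative. Ildr2 there turned to -0.0089 with no filter on low counts and to -0.013 with the GC and length offset, moved to 0.444 (SE 0.334) with the division as covariate, and ran from -0.0935 to 0.102 with a library left out. The value of Golm1 for PE on MD turned to -0.0323 without MD + PE 2, and its range over libraries left out was -0.0323 to 2.41. The cause of these changes was not tested, apart from MD + PE 2 holding the high value.

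Counts of called genes depended more on the settings. For PE on CD (397) they were 37 with the division as covariate, 229 with the clock score and 215 to 426 with a library left out. The list members called there (2) were 1 with no filter, 0 with the division, 7 with no minimum fold change and 1 to 3 with a library left out. For PE on MD (147) the counts were 296 by DESeq2, 57 with only the groups compared, 33 with the division, 69 with the GC and length offset and 56 to 243 with a library left out (56 without MD + PE 3, 243 without MD + Veh 4). For MD + Veh against CD + Veh (1410 genes, 15 list members) the clock score left 379 and 6. For MD + PE against CD + PE (627 genes, 6 list members) no minimum fold change gave 964 and 11, only the groups compared gave 2 list members, and leaving out a library gave 505 to 987 genes (987 without CD + PE 2) and 2 to 11 list members. For the difference between diets (1 gene) DESeq2 gave 85, the division 54, the clock score and the GC and length offset 0 each, and a library left out 0 to 3. The cause was not tested.

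Replicate numbers are shared across groups, but over 27 pairs of libraries with 1 number the median correlation of residuals was 0.0293 (6 pairs over 0.1), and 4 of 19 libraries correlated best with their own number. They were treated as unpaired. With the replicate block the difference between diets gave 41 genes and 1 list member, and the correlation of Ildr2 and Golm2 was 0.237 (permutation p = 0.315). With the block Golm1 in MD + PE against CD + PE was 1.73 (adjusted p = 0.0933 by edgeR). The other outcomes followed did not change. These were Ildr2, Golm2 and Cldn1 for PE on CD, Golm1 for PE on MD, and Lsr between groups. The call of Cldn1 in MD + Veh against CD + Veh was not followed. The correlation of Ildr2 and Golm2 ran from 0.218 to 0.433 with a library left out. Golm2 rests on as few as 45 counts in a library, and depth was lower in PE libraries.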
